A study of Mus musculus with 32 samples.

Results

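Out of 55103 rows in the deposited count table, 8 carry the genes described here: Adipoq, Lep, Retn, Cfd, Plin1, Cidec, Fabp4 and Lpl. They were chosen by symbol as markers of the adipocyte, the fat-storing cell, and all 8 were found. The libraries were made from 32 pieces of tumour grown from KPC36, a mouse pancreatic cancer line, and the labels give neither the genotype of the line nor the strain, sex or age of the host mice, nor the site at which the tumours grew. Of these tumours, 8 were treated with carbon ions, beams of charged nuclei that release their dose mainly where they stop, 8 were treated with photons, the usual form of radiotherapy, and each beam had 8 untreated controls of its own. Tumours were taken 4 or 7 days after irradiation, with controls at the same times, and since the labels leave out which of these days applies to which library, days were not compared. The dose is likewise not in the labels used here.

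White fat cells store triglyceride in a large droplet and secrete hormones. The products of the 8 genes fall into 3 roles: secreted factors (Adipoq, Lep, Retn and Cfd), proteins of the lipid droplet (Plin1 and Cidec), and proteins that bring in and carry fatty acids (Fabp4 and Lpl). Adipoq, Plin1, Lep and Cfd are close to specific for fat cells in the mouse, whereas Fabp4 is also made by capillary endothelium and macrophages, and Lpl by muscle and macrophages. In bulk tumour RNA, fewer fat cells and less RNA per fat cell cannot be told apart.

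Library totals ranged from 13891863 to 71645903 estimated counts. Levels are given as CPM, counts scaled to the library total after adjustment by trimmed mean of M values (TMM). Differences are log2 fold changes with their standard error (SE). In the carbon-ion arm, titles of 4 control and 3 irradiated libraries open with the letter D, and all 25 other titles open with M. What the letters stand for is not stated. Nothing in the labels says that libraries of a group came from separate animals, so p-values measure only the spread between these samples. The sum of 6 epithelial markers lay between 2154 and 4705 CPM in every library, and that of 6 pancreatic acinar markers between 0.166 and 1.37 CPM.

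The stretch of DNA before the start site is shown for 3 members, because Adipoq and Lep encode the best known hormones of the fat cell, and Cidec had the lowest correlation with Adipoq over all libraries. Sequences are from RefSeq on GRCm38.p6 and are written 5′ to 3′ on the strand of the gene. Capitals mark matches, on either strand, to the 8-base C/EBP-type motif TTGCNNAA or to CCAAT. C/EBP proteins are transcription factors that help to switch on fat cell genes.
Adipoq, chr16:23146286-23146535, plus strand: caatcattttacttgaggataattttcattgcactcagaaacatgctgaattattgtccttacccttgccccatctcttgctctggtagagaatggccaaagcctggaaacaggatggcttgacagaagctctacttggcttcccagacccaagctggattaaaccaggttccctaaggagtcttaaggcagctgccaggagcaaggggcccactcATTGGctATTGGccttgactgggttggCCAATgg
Lep, chr6:29059971-29060219, plus strand: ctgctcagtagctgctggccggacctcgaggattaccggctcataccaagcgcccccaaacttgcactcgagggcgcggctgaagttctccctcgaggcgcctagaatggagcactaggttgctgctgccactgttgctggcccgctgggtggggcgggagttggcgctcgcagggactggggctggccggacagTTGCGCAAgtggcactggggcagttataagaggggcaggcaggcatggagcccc
Cidec, upstream start, chr6:113435761-113436010, minus strand: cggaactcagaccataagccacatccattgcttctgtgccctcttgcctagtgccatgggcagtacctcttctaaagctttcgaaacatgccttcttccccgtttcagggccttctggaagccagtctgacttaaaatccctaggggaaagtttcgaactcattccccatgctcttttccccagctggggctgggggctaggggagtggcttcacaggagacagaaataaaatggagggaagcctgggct
Cidec, downstream start, chr6:113434765-113435014, minus strand: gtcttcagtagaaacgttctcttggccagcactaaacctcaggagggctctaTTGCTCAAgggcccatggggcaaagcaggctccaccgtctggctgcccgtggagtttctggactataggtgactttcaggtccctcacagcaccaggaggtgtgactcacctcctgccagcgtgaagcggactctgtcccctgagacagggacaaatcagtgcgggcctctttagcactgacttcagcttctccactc

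Adipoq holds 3 CCAAT matches within 34 bases of its start, and Lep holds 1 C/EBP-type match 54 bases before its start. For Cidec, RefSeq lists 2 starts: the window before the downstream one holds a C/EBP-type match and the window before the upstream one holds none of the motifs searched. The counts are per gene and do not tell which Cidec start was used. Of the other members in the promoter table, Plin1 holds 2 C/EBP-type matches, and Retn and Cfd hold no match to the motifs searched. TATAAA and AGGTCA, a half-site of nuclear receptors, were searched as well and matched in none of these windows. Among 32851 windows of the same table, 9.56% hold TTGCNNAA, 33.8% CCAAT, 12.4% TATAAA and 14.0% AGGTCA. No match overlapped another, and a match is a run of letters and not a measured binding site.

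All 8 genes had their highest level in 1 and the same library, replicate 5 of the carbon-ion controls, which has an M title. Adipoq stood at 23.2 CPM there, and the next libraries were photon control replicate 8 at 5.05 CPM and photon control replicate 5 at 2.71 CPM. The median of the 32 libraries was 0.167 CPM. This library held 90.2% of the Adipoq level summed over the carbon-ion controls, and between 85.6% and 92.1% of that of Plin1, Lep, Retn and Cfd. Its share was smaller for Fabp4 with 68.4%, Lpl with 52.3% and Cidec with 35.2%. In the plot of all members by library, this control lies above every other library in all 8 panels.

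**Figure D1:**
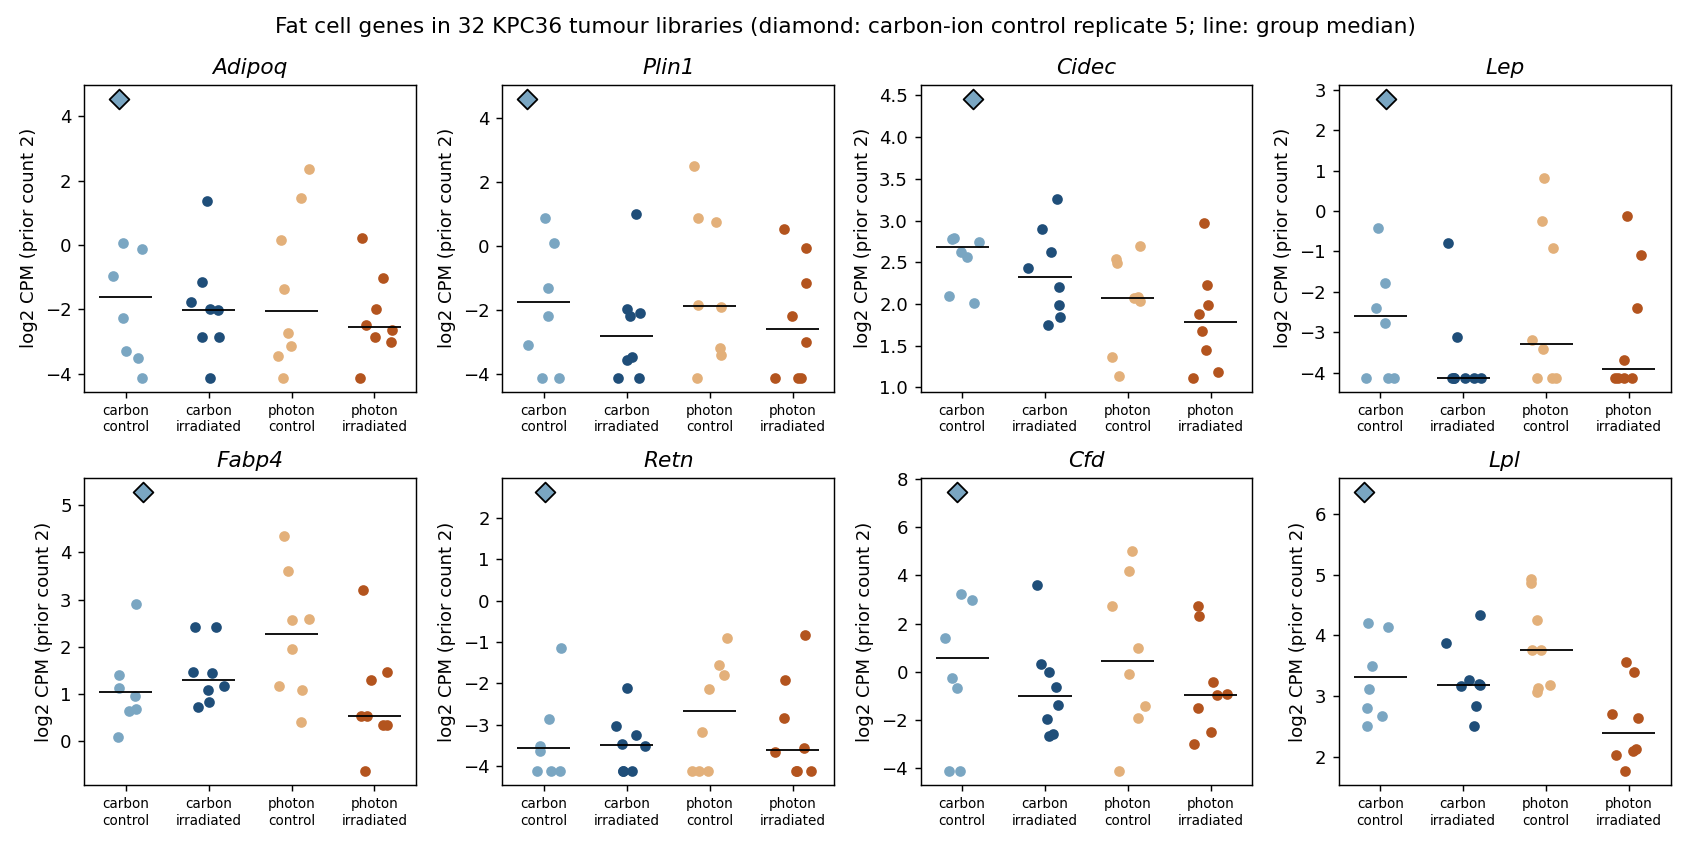
Level of each fat cell gene in log2 CPM (vertical axis, prior count 2) for the 32 libraries in their 4 groups; each point is 1 library, the diamond is carbon-ion control replicate 5 and the line is the group median. The diamond is the highest point in each panel, at 23.2 CPM for Adipoq, and Lpl after photons is the group whose points all lie below the median of its controls.

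Per kilobase of the principal transcript, Cfd was the most abundant member in that library, at 191 CPM per kilobase, ahead of Fabp4 at 43.4, Lpl at 19.9 and Adipoq at 17.9. Cidec followed at 12.7, Plin1 at 8.59, Retn at 5.37 and Lep at 2.09 CPM per kilobase. Across the 32 libraries the order of the median levels was another one. Cidec at 2.55, Fabp4 at 2.43 and Lpl at 2.20 CPM per kilobase led, then came Cfd at 0.692, and Adipoq at 0.129, Plin1 at 0.0579, Retn at 0.0261 and Lep at 0.00313 CPM per kilobase lay far below. The 3 genes with the highest medians were the ones present in every library. In contrast, Lep had a count of 0 in 16 libraries, Retn in 12, Plin1 in 8, Adipoq in 4 and Cfd in 3.

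Adipoq (chr16:23146536-23158028, plus strand) encodes adiponectin, a hormone made almost solely by fat cells. In the carbon-ion controls it ranged from 0 to 23.2 CPM with a median of 0.299 CPM, and after carbon ions from 0 to 2.51 CPM with a median of 0.190 CPM. Photon controls ranged from 0 to 5.05 CPM around a median of 0.213 CPM, and photon-irradiated libraries from 0 to 1.10 CPM around 0.113 CPM. All 4 groups overlapped, and 6 of 8 irradiated libraries lay below the median of their own controls with either beam. The log2 fold change was -2.88 (SE 1.18) for carbon ions and -2.16 (SE 1.21) for photons. Neither passed edgeR's quasi-likelihood test, with adjusted p values of 0.733 and 0.302. The carbon-ion value turned to 0.32 (SE 1.02) without carbon-ion control replicate 5.

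Lep (chr6:29060220-29073877, plus strand) encodes leptin, the hormone that reports the size of the fat stores to the brain. Its count was 0 in 6 of 8 libraries after carbon ions and in 3 of 8 of their controls. In those 6 libraries a count of 0 allows up to between 0.0458 and 0.121 CPM, the level that 3 counts would give, with counting error only. Its highest levels were 6.80 CPM (controls) and 0.520 CPM (irradiated) in the carbon-ion arm, and 1.71 CPM (controls) and 0.859 CPM (irradiated) in the photon arm. Group medians were 0.111, 0, 0.0449 and 0.0102 CPM in that order. The groups therefore overlapped near 0. Fitted log2 fold changes were -4.08 (SE 1.40) for carbon ions and -1.14 (SE 1.22) for photons. With so many counts at 0, the size of these values depends on the fit, and edgeR's adjusted p values were 0.553 and 0.629. Leaving out carbon-ion control replicate 5 brought the former to -1.46 (SE 1.33), and leaving out carbon-ion irradiated replicate 8 to -6.47.

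Retn (chr8:3655770-3660110, plus strand) encodes resistin, a peptide that white fat cells of mice secrete. It was too low for the filter on counts and was not tested with the other 7 members. Apart from carbon-ion control replicate 5 at 6.12 CPM, no library exceeded 0.504 CPM, the level of photon-irradiated replicate 5. The carbon-ion arm had medians of 0.0264 CPM (controls) and 0.0308 CPM (irradiated), and the photon arm of 0.111 CPM and 0.0243 CPM. Each group had 3 libraries with a count of 0. When every gene with a count was fitted, Retn had a log2 fold change of -4.37 (SE 1.21, edgeR adjusted p = 0.364) for carbon ions and -0.55 (SE 1.10, adjusted p = 0.873) for photons. The carbon-ion value came with a control mean of 0.830 CPM and an irradiated mean of 0.0434 CPM, and the control mean was 0.0747 CPM without replicate 5.

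Cfd (chr10:79890853-79892655, plus strand) encodes adipsin, the complement protease factor D, which fat cells release in large amounts. It reached 176 CPM in carbon-ion control replicate 5 against a median of 1.68 CPM in that group. After carbon ions the range was 0.0972 to 12.2 CPM with a median of 0.452 CPM. Photon controls ran from 0 to 32.2 CPM (median 1.41 CPM) and photon-irradiated libraries from 0.0660 to 6.58 CPM (median 0.460 CPM). The irradiated medians were thus the lower ones with both beams, while the ranges overlapped widely. Cfd had the lowest fold change of the 7 tested members for the mean of both beams, a log2 value of -2.92 (SE 0.95, edgeR adjusted p = 0.135). It was -1.39 (SE 0.83) without carbon-ion control replicate 5. It passed the threshold when carbon-ion irradiated replicate 8 was left out, with an adjusted p of 0.0417.

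Plin1 (chr7:79720218-79732903, minus strand) encodes perilipin 1, which coats the droplet of fat cells and controls the access of lipases to it. Its levels followed those of Adipoq. Carbon-ion controls spanned 0 to 24.2 CPM (median 0.252 CPM), and libraries irradiated with carbon ions spanned 0 to 1.95 CPM (median 0.0979 CPM). In the photon arm, controls spanned 0 to 5.56 CPM (median 0.214 CPM) and irradiated libraries 0 to 1.39 CPM (median 0.115 CPM). After carbon ions 7 of 8 libraries lay below the control median, and after photons 5 of 8 did. The log2 fold change was -3.55 (SE 1.299) for carbon ions, -0.68 (SE 1.15) without control replicate 5, and -1.71 (SE 1.23) for photons. In edgeR the adjusted p values of the full fits were 0.611 and 0.440.

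Cidec (chr6:113424634-113435760, minus strand) encodes a protein at the contact sites of lipid droplets, where small droplets pass their lipid to larger ones. It was the member with the narrowest range on the log2 scale. Without carbon-ion control replicate 5 at 21.9 CPM, all libraries lay between 2.11 and 9.48 CPM. Medians of the control and irradiated libraries were 6.38 and 4.95 CPM in the carbon-ion arm and 4.16 and 3.38 CPM in the photon arm, and all groups overlapped. Cidec was also present where Adipoq was not: the 4 libraries with no Adipoq count held 3.90 to 5.83 CPM of Cidec. Neither beam gave a difference beyond the spread, with log2 values of -0.51 (SE 0.31, edgeR adjusted p = 0.959) for carbon ions and -0.20 (SE 0.32, adjusted p = 0.765) for photons. The carbon-ion value was -0.08 without carbon-ion control replicate 5, and the photon value was -0.44 without photon-irradiated replicate 2.

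Fabp4 (chr3:10204088-10208576, minus strand) encodes a carrier of fatty acids inside the cell. In the photon arm it ranged from 1.27 to 20.5 CPM in the controls, with a median of 4.85 CPM, and from 0.584 to 9.18 CPM after photons, with a median of 1.38 CPM. All but 1 of the 8 irradiated libraries lay below the control median, the exception being replicate 5. In the carbon-ion arm the medians were 1.99 CPM in the controls and 2.41 CPM after carbon ions, and the control median was exceeded in 6 of the 8 irradiated libraries. The fitted value nevertheless was negative there, -1.29 on the log2 scale (SE 0.67), and it became 0.18 (SE 0.55) when control replicate 5 at 38.9 CPM was left out. For photons it was -1.43 (SE 0.68), and edgeR's adjusted p was 0.211.

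Lpl (chr8:68880491-68907448, plus strand) encodes lipoprotein lipase, the secreted enzyme that frees fatty acids from circulating lipoproteins at the capillary wall. It was the most evenly spread member after Cidec on the log2 scale. Photon controls held 8.29 to 30.3 CPM with a median of 13.5 CPM, and photon-irradiated libraries 3.36 to 11.7 CPM with a median of 5.26 CPM. The ranges overlapped between 8.29 and 11.7 CPM, and all 8 irradiated libraries lay below the control median. In the carbon-ion arm the controls ranged from 5.63 to 81.9 CPM around 9.94 CPM and the irradiated libraries from 5.64 to 20.1 CPM around 9.08 CPM. For photons the log2 fold change was -1.36 (SE 0.45, edgeR adjusted p = 0.0731), which missed the threshold of 0.05. The adjusted p was 0.0200 without carbon-ion control replicate 5, a library outside this comparison that enters the shared estimate of the spread, 0.0280 in a fit of the photon arm alone and 0.0405 by DESeq2. Over all alternatives it ranged from 0.0200 to 0.169. For carbon ions Lpl was at -0.90 (SE 0.44), and at -0.02 (SE 0.33) without that library.

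Marker lists of 4 other cell types, some of which also make Lpl or Fabp4, were among those whose sums had lower medians after photons. The 10 skeletal muscle markers summed to between 7.92 and 1685 CPM in the photon controls, with a median of 832 CPM, and to between 4.35 and 456 CPM after photons, with a median of 14.4 CPM. For the 7 macrophage markers the medians were 723 CPM (499 to 958 CPM) in the controls and 480 CPM (340 to 643 CPM) after photons. The 9 endothelial markers had medians of 380 CPM (335 to 633 CPM) and 304 CPM (278 to 599 CPM), and the 6 fibroblast markers of 15615 CPM (12387 to 26510 CPM) and 11392 CPM (9011 to 16749 CPM). Lower medians after photons were also found for neutrophil markers (23.1 against 43.2 CPM) and T cell markers (4.27 against 7.51 CPM). For skin keratinocyte markers the medians were 3.27 CPM after photons and 4.03 CPM in the controls. Other lists had higher medians after photons, among them peripheral nerve with 113 CPM against 100.3 CPM and sebaceous gland with 11.2 against 10.4 CPM. Mammary epithelium had a higher median, 0.942 against 0.518 CPM, but its highest sum was 13.3 CPM in the controls and 2.48 CPM after photons. Tumour epithelium stood at 2946 against 3031 CPM. No marker of the first 4 lists was at 0 in all libraries. Their part in the Lpl and Fabp4 values was not tested.

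The first comparison asked what carbon ions changed relative to their own controls. By edgeR none of the 7 tested members had an adjusted p under 0.05, nor had any of the 20474 tested genes (0%). DESeq2 called 17 genes and none of the members, with no adjusted p given for Adipoq and Lep. All 7 had a log2 fold change below 0, as had 48.5% of all genes tested, with a median of -2.88 against 0.01 for all genes. At an unadjusted p under 0.05, 5 members were lower, against 2.07% of all genes. These values rested on carbon-ion control replicate 5. Without it 5 members were below and 2 above 0, with 47.7% of all genes below 0, and the median of the members was -0.08. In that fit 0 of 7 were lower at an unadjusted p under 0.05, against 1.84% of all genes. By DESeq2, which replaces outlying counts in groups of this size and did so for Adipoq and Cfd in that library, Adipoq was at 0.40 and Cfd at -0.54, and Plin1 stayed at -3.45. With the M-titled libraries alone, which keep replicate 5, Adipoq was at -3.28 and Lpl at -1.63, and the D-titled libraries, 4 controls and 3 irradiated, had Adipoq medians of 0.248 and 0.186 CPM.

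**Figure D2:**
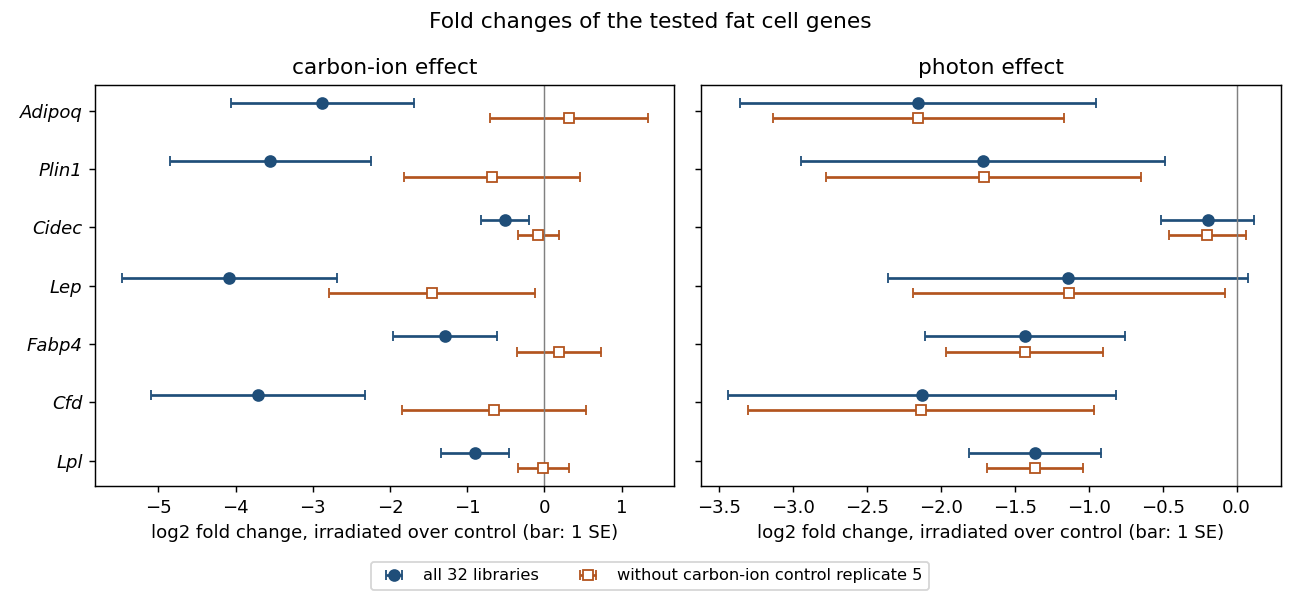
Log2 fold change of the 7 tested fat cell genes, irradiated over control, for carbon ions (left) and photons (right); circles use all 32 libraries, open squares leave out carbon-ion control replicate 5, and bars are 1 standard error. Adipoq moves from -2.88 to 0.32 in the left panel and lies at -2.16 and -2.15 in the right one.

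The photon comparison set the photon-irradiated libraries against the photon controls. Again all 7 members were below 0, as were 50.1% of all genes, and their median was -1.43. No member had an adjusted p under 0.05, while 3.81% of all genes had one and 2.1% were lower with one. Lpl and Fabp4 were lower at an unadjusted p under 0.05, 2 of 7 against 12.7% of all genes. Without carbon-ion control replicate 5, Adipoq joined them, which made 3 of 7 against 12.6% of all genes, and Lpl passed the adjusted threshold, 1 of 7 against 3.62% of all genes. The size of the fold changes depended on photon control replicate 8, without which Adipoq was at -1.25, Plin1 at -0.67, Lep at -0.20 and Cfd at -1.23, and for Fabp4 on photon control replicate 3, without which it was at -0.93. Leaving out photon-irradiated replicate 5 moved them the other way, to -3.01 for Adipoq, -2.44 for Plin1, -2.22 for Lep, -2.85 for Cfd and -2.12 for Fabp4. Lpl ranged from -1.54 to -1.18 over the fits that each left out 1 library.

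Averaged over both beams, all 7 members were below 0, as were 47.6% of all genes. Their median log2 fold change was -2.52, against 0.01 for all genes, and 6 of them were lower at an unadjusted p under 0.05, against 7.9% of all genes. None passed the adjusted threshold, which 0.772% of all genes did. Lpl came nearest, with a log2 value of -1.13 (SE 0.31, edgeR adjusted p = 0.0770), and DESeq2 gave an adjusted p of 0.0296. The edgeR value was 0.0412 without carbon-ion irradiated replicate 3. Without carbon-ion control replicate 5 the median was -0.92, and Lpl alone, 1 of 7, was lower at an unadjusted p under 0.05, against 7.02% of all genes. Its adjusted p was then 0.175.

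The carbon-ion effect less the photon effect was tested as a contrast of its own. No member passed in edgeR, against 0.0781% of all genes, none passed by DESeq2, and 0 of 7 had an unadjusted p under 0.05, against 13% of all genes. The log2 differences ran from -2.94 for Lep (SE 1.87, edgeR adjusted p = 0.493) to 0.47 for Lpl (SE 0.62, adjusted p = 0.758). Leaving out carbon-ion control replicate 5 turned the sign for Adipoq, Plin1, Cidec and Cfd, and moved Lpl to 1.35 (SE 0.47, adjusted p = 0.188), Fabp4 to 1.62 (SE 0.76, adjusted p = 0.343) and Lep to -0.32. Then 6 of 7 members were above 0 and 1 below, while 47.7% of all genes were below 0. Lpl and Fabp4, 2 of 7, had an unadjusted p under 0.05, against 13.7% of all genes. The contrast shares its control and its irradiated libraries with both single-beam comparisons.

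Untreated tumours of both arms were compared as well. All 7 tested members had the higher fitted level in the carbon-ion controls, with log2 values from 0.07 for Fabp4 to 1.70 for Cfd, and none passed the threshold in edgeR or DESeq2, which 9.14% of all genes did in edgeR. Of all genes, 53.2% had a value below 0 in this comparison. Cidec came nearest at 0.85 (SE 0.31, edgeR adjusted p = 0.0868), and it was the 1 member of 7 with an unadjusted p under 0.05, against 11.8% of all genes that were higher at that level. It was at 0.41 without carbon-ion control replicate 5. In that fit all but Cidec were the lower ones in the carbon-ion controls, as were 53.5% of all genes. Adipoq was at -1.75 (SE 1.004), Fabp4 at -1.40 (SE 0.55) and Lpl at -0.63 (SE 0.33), and no member passed. For Adipoq, Plin1, Lep, Cfd and Lpl, no other single library turned the sign when left out. The Fabp4 value lay near 0, and its sign also turned without photon control replicate 1, 2, 4 or 6.

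Across the 32 libraries, 3 members varied closely with Adipoq on the log2 CPM scale. Pearson's r was 0.92 for Plin1, for Lep and for Cfd, with Spearman's rho of 0.82, 0.83 and 0.86. For each of them the two-sided permutation p was 1e-05, the smallest that 100000 resamples can give, and the adjusted p over the 7 relations was 1e-05 for r. Lpl, Retn and Fabp4 followed at r of 0.78, 0.77 and 0.77 with rho of 0.63, 0.55 and 0.63, all with an adjusted permutation p for r of 1e-05 and for rho of at most 0.0019. Cidec had an r of 0.55 (permutation p = 0.00136, adjusted 0.00136) and a rho of 0.45 (permutation p = 0.0115, adjusted 0.0115). Leaving out carbon-ion control replicate 5 and photon control replicate 8, the libraries farthest from the median of Adipoq, brought r to 0.86 for Plin1, 0.86 for Lep and 0.88 for Cfd, to between 0.61 and 0.62 for Fabp4, Retn and Lpl, and to 0.33 for Cidec, whose adjusted permutation p was then 0.0785. The pooled Cidec relation thus passed the threshold with those libraries and did not pass without them.

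Within groups the relation of Adipoq to Plin1 ranged from 0.88 to 0.98, that to Cfd from 0.87 to 0.96 and that to Lep from 0.84 to 0.98, with 8 libraries in each. Lep had a count of 0 in 16 of the 32 libraries, which all share the same log2 CPM. After carbon ions its counts were 12 in replicate 8, 2 in replicate 2 and 0 in all others. The r of Lep in that group therefore rests on these libraries. Fabp4 ranged from 0.39 in the carbon-ion irradiated libraries to 0.93 in the carbon-ion controls, and Cidec from 0.23 to 0.92 in those same groups. Among the 7 D-titled libraries, r was 0.94 for Plin1, 0.94 for Cfd, 0.89 for Lep, 0.68 for Lpl, 0.31 for Fabp4 and 0.53 for Cidec, and among the 25 M-titled ones it was 0.92, 0.93, 0.92, 0.81, 0.81 and 0.59 in that order. After subtraction of group means it stayed between 0.77 and 0.93 for all members but Cidec, which had 0.58.

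**Figure D3:**
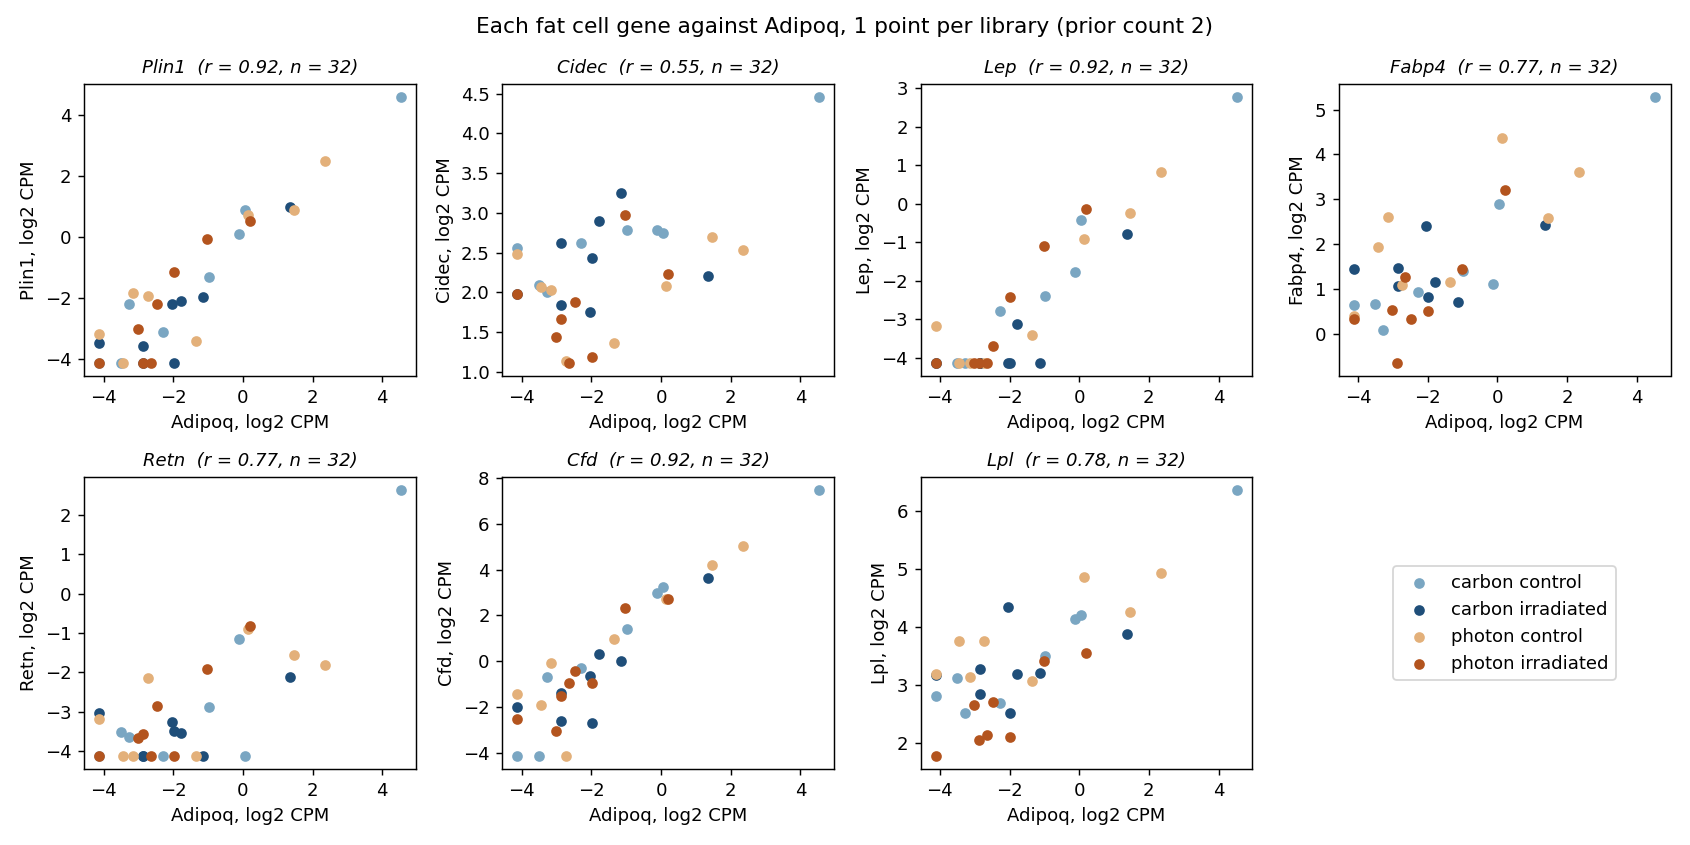
Log2 CPM of each of 7 fat cell genes (vertical axis) against that of Adipoq (horizontal axis), 1 point per library, coloured by group. Plin1, Lep and Cfd lie along a line with r = 0.92, whereas Cidec, with r = 0.55, is spread over a flat band below the single high library.

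Counts were also set in ratio to Adipoq. Over the 9 libraries with at least 20 Adipoq counts, Plin1 had 0.50 to 1.82 counts per Adipoq count with a median of 1.10, and Cfd 2.38 to 9.50 with a median of 6.37. These ratios spanned 3.65-fold and 3.98-fold between libraries, the narrowest spans of the 7 genes. The Lpl ratio ran from 3.53 to 27.7, a 7.85-fold span, that of Fabp4 from 1.68 to 19.6, an 11.7-fold span, and that of Cidec from 0.946 to 23.9, a 25.3-fold span. Lep and Retn had ratios from 0 to 0.784 and from 0 to 0.459, and no span can be given for them. Carbon-ion control replicate 5 held 924 Adipoq, 965 Plin1, 7017 Cfd, 271 Lep and 244 Retn counts.

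Markers of 11 other cell types were set against Adipoq in the same way, each as the mean log2 CPM of its list. Fibroblast markers had an r of 0.57 (permutation p = 0.0007, adjusted 0.0077), peripheral nerve markers 0.53 (permutation p = 0.00242, adjusted 0.0133) and endothelial markers 0.44 (permutation p = 0.0123, adjusted 0.0452). Spearman's rho was 0.52, 0.48 and 0.42 (adjusted permutation p = 0.0298, 0.0337 and 0.0614). Without the 2 farthest libraries r was 0.51, 0.36 and 0.33. Within groups r ranged from 0.46 to 0.72 for fibroblast markers, from 0.13 to 0.96 for nerve markers and from -0.05 to 0.95 for endothelial markers, each time with the carbon-ion controls highest. In the D-titled libraries it was -0.05, 0.39 and 0.51 in that order, and in the M-titled ones 0.63, 0.55 and 0.40. The D-titled libraries reached at most 0.860 CPM of Adipoq, and the difference between the letters was not tested. For macrophage markers r was 0.41 with an adjusted permutation p of 0.0527, for skin keratinocyte markers 0.28 with 0.186, for T cell markers 0.29 with 0.186 and for mammary epithelium 0.12 with 0.587. Neutrophil (0.09), skeletal muscle (-0.12), sebaceous gland (-0.29) and tumour epithelial markers (-0.27) did not pass either (adjusted permutation p = 0.622, 0.587, 0.186 and 0.188).

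The single library high in fat cell genes also had the highest sum of the 7 skin keratinocyte markers, 17.4 CPM, against medians of 3.27 to 4.28 CPM in the 4 groups. A photon-irradiated library came close to it with 16.3 CPM. Carbon-ion control replicate 5 ranked 3rd of 32 for endothelial (450 CPM), peripheral nerve (128 CPM) and mammary epithelium markers (4.29 CPM). It was 6th for fibroblasts (16318 CPM) and macrophages (828 CPM), 11th for T cells (6.35 CPM) and 21st for neutrophils (28.1 CPM). It was 22nd for pancreatic acinar markers (0.426 CPM) and 27th for sebaceous gland (9.36 CPM). For tumour epithelium it was 27th (2687 CPM) and for skeletal muscle 30th (5.07 CPM). Its 8 fat cell genes summed to 379 CPM, and the next highest sum of any group was 93.0 CPM in the photon controls. The labels do not record whether tissue around a tumour was taken with any of the pieces. The part of these other cells in the fat cell gene levels was not tested.

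The 10 genes most like the members were sought among 13379 tested genes with a mean log2 CPM of at least 0, by Pearson's r over the 32 libraries with the mean of the standardised member levels. They were Hp (r = 0.94), Trarg1 (0.89), Lrg1 (0.83), Acsl1 (0.83), Steap4 (0.82), Abcd2 (0.82), Cd36 (0.81), Serpina3n (0.79), Scd1 (0.79) and Dpt (0.79), and the median over all candidates was 0.04. Hp, haptoglobin, binds free haemoglobin. Trarg1 is a partner of the insulin-regulated glucose transporter, Acsl1 activates fatty acids, Cd36 takes them up and Scd1 desaturates them. Hp reached 251 CPM in carbon-ion control replicate 5, with 62.3 CPM in the next library and a median of 5.88 CPM. Scd1 stood at 669 CPM there, with 179 CPM in the next library. Without that library r was 0.91 for Hp, 0.84 for Trarg1, 0.76 for Cd36 and 0.63 for Scd1. Serpina3n (3rd) and Dpt (2nd) were the genes among the 10 whose highest level lay in another library.

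**Figure D4:**
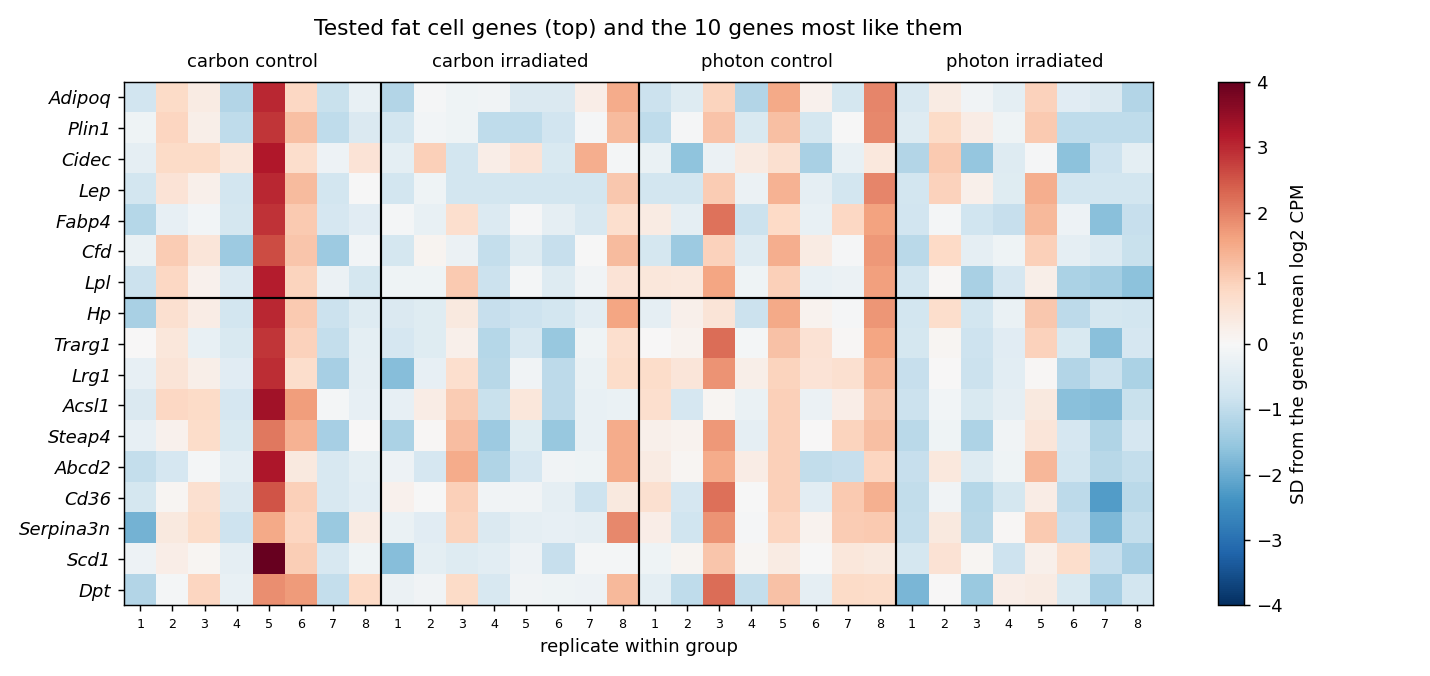
Level of the 7 tested fat cell genes (above the line) and of the 10 genes most like them (below), as standard deviations from each gene's mean log2 CPM, in the 32 libraries ordered by group and replicate. The column of carbon-ion control replicate 5 is the reddest for all genes but Serpina3n and Dpt, and photon control replicates 3, 5 and 8 and carbon-ion irradiated replicate 8 are paler red columns.

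Other genes of fat cell biology were followed in 8 lists, none of which shares a gene with the members. Of 14 other white fat cell genes, 11 were tested and 10 of them were below 0 for the mean of both beams, against 47.6% of all genes, with a median of -0.33, but none passed. Without carbon-ion control replicate 5 there were 7 below and 4 above 0, with 47.7% of all genes below 0, and the list's median was -0.15. Nearest was Trarg1 at -1.17 (SE 0.32, edgeR adjusted p = 0.0770), which was at -0.77 without that library, followed by Pck1, an enzyme of glyceride synthesis, at -3.05 (SE 0.94, adjusted p = 0.110) and Car3, a carbonic anhydrase abundant in fat and muscle, at -1.68 (SE 0.68, adjusted p = 0.235). Pck1 was at -1.11 (adjusted p = 0.606) without carbon-ion control replicate 5, and at -3.87 (adjusted p = 0.0430) without carbon-ion irradiated replicate 8. Plin4, a further droplet coat protein, was at -0.25 (SE 0.25), and at 0.09 without carbon-ion control replicate 5. Adig, Adrb3 and Mrap were too low to be tested.

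Among 12 transcription factors, 1 fell and none rose for the mean of both beams and for photons, while of all genes 0.332% and 2.1% fell. Zfp423, which marks cells committed to become fat cells, fell by 0.72 on the log2 scale (SE 0.17, adjusted p = 0.0407) for the mean of both beams and by 0.83 (SE 0.24, adjusted p = 0.0473) for photons. The mean effect had an adjusted p of 0.0744 when carbon-ion control replicate 5 was left out. Pparg, the master regulator of the fat cell, was at 0.19 (SE 0.14, adjusted p = 0.597), and Cebpa at -0.12 (SE 0.08, adjusted p = 0.579). Klf15 was at -0.73 (adjusted p = 0.146) and Ebf2 at -0.74 (adjusted p = 0.169). Pparg lay at 19.5 to 69.3 CPM and Cebpa at 21.5 to 59.9 CPM in all libraries, also in those without an Adipoq count. Cebpa was higher in the carbon-ion than in the photon controls, by a log2 value of 0.53 (SE 0.12, adjusted p = 0.00500).

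Of 10 genes for lipid uptake and handling, 9 were tested. Vldlr, a lipoprotein receptor, rose by 1.004 on the log2 scale for the mean of both beams (SE 0.24, adjusted p = 0.0407) and had an adjusted p of 0.0601 without carbon-ion control replicate 5. Cd36 fell by 1.96 after photons (SE 0.53, adjusted p = 0.0325), and it was at -1.38 for the mean effect (SE 0.37, adjusted p = 0.0605). Acsl1 was at -0.39 with an adjusted p of 0.147. At an unadjusted p under 0.05, 6 of the 9 genes were lower after photons and 1 was higher, against 12.7% and 8.87% of all genes. Lmf1, which is needed for the folding of lipoprotein lipase, was lower in the carbon-ion than in the photon controls at -0.45 (SE 0.12, adjusted p = 0.0150), without a difference past the threshold for either beam.

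Among 13 genes for fat synthesis, Elovl6, an elongase of fatty acids, fell by 0.63 for the mean of both beams (SE 0.11, adjusted p = 0.00317) and by 0.66 after photons (SE 0.15, adjusted p = 0.0150). It was also lower in the carbon-ion than in the photon controls, at -0.50 (SE 0.15, adjusted p = 0.0310). Leaving out any 1 of the 32 libraries kept both irradiation effects past the threshold. Thrsp was at -1.21 (adjusted p = 0.102) and Acaca at -0.18 (adjusted p = 0.134). Dgat2, which makes triglyceride, and Gpd1, which supplies its glycerol backbone and stands in the list of white fat cell genes, were higher in the carbon-ion controls than in the photon controls, by 1.26 (SE 0.21, adjusted p = 0.000568) and 0.82 (SE 0.16, adjusted p = 0.00203).

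All 6 genes of the fat cell precursor list, which stromal cells and fibroblasts also express, were below 0 after photons, as were 50.1% of all genes, with a median of -0.88, and 2 of them passed, against 2.1% of all genes that were lower and passed. Dpp4 fell by 1.60 (SE 0.42, adjusted p = 0.0310) and Pdgfrb by 0.52 (SE 0.13, adjusted p = 0.0265). For the mean of both beams Pdgfrb fell by 0.41 (SE 0.09, adjusted p = 0.0354), Dpp4 was at -1.04 (adjusted p = 0.0867) and Cd34 at -0.51 (adjusted p = 0.133). Pdgfrb had an adjusted p of 0.0601 for the mean effect without carbon-ion control replicate 5. Pdgfra was lower in the carbon-ion than in the photon controls at -0.77 (SE 0.22, adjusted p = 0.0257).

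The lists of lipolysis, of hormone receptors and of brown fat held no gene that passed for either beam. Pnpla2, the first lipase of fat breakdown, was at 0.05 (SE 0.08) for the mean effect, G0s2, its inhibitor, at -0.51 (adjusted p = 0.169), and the general droplet coat genes Plin3 at 0.21 (adjusted p = 0.418) and Plin2 at 0.17 (adjusted p = 0.436). Pde3b was lower in the carbon-ion than in the photon controls, at -0.58 (SE 0.18, adjusted p = 0.0326). Of 7 adipokines and receptors, 0 were below 0 for the mean effect, against 47.6% of all genes. The 3 with the smallest unadjusted p were Nampt at 0.24 (adjusted p = 0.268), Cdh13 at 0.17 (adjusted p = 0.439) and Adipor2 at 0.08 (adjusted p = 0.608). Ucp1, the uncoupling protein that defines brown fat, had at most 4 counts in a library and was not tested. Cidea was at 0.80 (adjusted p = 0.190), Cox8b at -1.46 (adjusted p = 0.288) and Dio2 at -0.79 (adjusted p = 0.386), all by edgeR. Dio2 was at -0.38 without photon control replicate 3. By beam, Cox8b was at 0.18 (SE 0.84) for carbon ions and at -3.10 (SE 0.997) for photons.

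Several values in these lists lay close to the threshold. When libraries were left out 1 at a time, the mean effect of Cd36 passed 5 times (adjusted p from 0.0332), that of Trarg1 3 times (from 0.0424), that of Dpp4 2 times (from 0.00636), and those of Pck1 (0.0430) and Cidea (0.0398) 1 time each. By DESeq2 Cd36 (0.0167), Trarg1 (0.0196) and Dpp4 (0.0228) passed. In the 32 fits that each left out 1 library, Zfp423 lost its photon call in 17 and its mean-effect call in 14, Vldlr in 17, Pdgfrb in 13 (mean effect) and 5 (photons), and Cd36 and Dpp4 their photon calls in 8 each. The largest adjusted p values in these fits were 0.121 for Zfp423, 0.0844 for Vldlr, 0.0942 for Pdgfrb, 0.109 for Cd36 and 0.118 for Dpp4, and photon control replicate 3 was among the libraries left out for each of the 5 genes. With the M-titled libraries alone, the mean effect had adjusted p values of 0.0668 for Zfp423, 0.0844 for Vldlr, 0.0554 for Elovl6 and 0.151 for Pdgfrb, and the photon effect 0.0573 for Zfp423. The photon effect of Zfp423 also missed the threshold with the title letter as a covariate (0.0517), without the filter (0.0773) and with upper-quartile scaling (0.0523). With the covariate, so did the mean effect of Vldlr (0.0573) and, between the controls, Elovl6 (0.103), Lmf1 (0.1002) and Pdgfra (0.0889). Between the controls, Cebpa, Dgat2, Gpd1 and Lmf1 passed in all 32 fits, Elovl6 failed in 12, Pde3b in 8 and Pdgfra in 5, and with the M-titled libraries alone Elovl6, Lmf1 and Pdgfra had adjusted p values of 0.161, 0.0945 and 0.274.

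**Figure D5:**
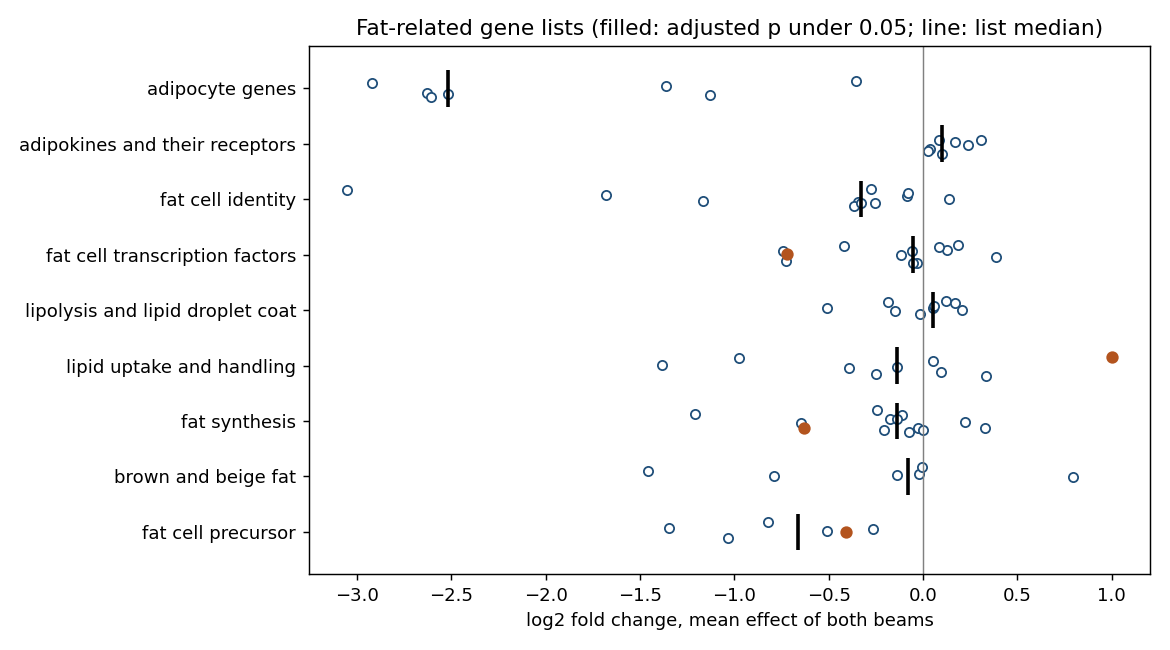
Log2 fold change for the mean effect of both beams (horizontal axis) of the 7 tested fat cell genes and of the tested genes of 8 lists; each point is a gene, filled points have an adjusted p under 0.05 and the line is the list's median. The fat cell genes have a median of -2.52 with no filled point, and filled points are Zfp423, Vldlr, Elovl6 and Pdgfrb.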

How the data were processed

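The members and gene lists were chosen with earlier results of these data known. Per the labels' protocols, stranded mRNA libraries were made from tumour tissue. The authors deposited 1 table of estimated counts per gene symbol, named raw counts. The submitters' processing notes list FastQC 0.12.0, Trimmomatic 0.32, RSEM 1.3.3 and the build mm10, without roles. Counts were rounded, which changed library totals by at most 0.00403%. In R 4.3.3, edgeR 4.0.16 kept 20474 genes (filterByExpr, minimum count 10), scaled them by TMM and fitted 1 quasi-likelihood model with a coefficient per group to the 32 libraries. P-values were adjusted over all tested genes (Benjamini-Hochberg, threshold 0.05), and standard errors were derived from the F statistic. The fit was tested on simulated counts. DESeq2 1.42.0 was an alternative. From each list the text names the 3 genes with the smallest unadjusted p for the mean effect, every gene past the threshold, and Pparg, Cebpa, Plin4, Ucp1 and Pnpla2. Positions and principal transcripts are from GENCODE on GRCm38. No member overlaps another annotated gene.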

Additional observations from a re-analysis of the deposited data

Results flagged for a closer look

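Of 32 sets of 8 libraries (8 genes in 4 groups), 19 had a highest library whose gap to the next was large for the range of the group by Dixon's ratio. For normally spread values chance gives about 1 in 20, counting both ends. These levels are skewed, some are 0, and the rate for such values was not computed. The genes move together, so these sets are not independent.

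In the carbon-ion controls replicate 5 stood apart for all 8 genes. Its levels were 23.2 CPM for Adipoq, 24.2 CPM for Plin1, 21.9 CPM for Cidec, 6.80 CPM for Lep, 38.9 CPM for Fabp4, 6.12 CPM for Retn, 176 CPM for Cfd and 81.9 CPM for Lpl. The next highest controls of that arm were at 0.980, 1.79, 6.84, 0.692, 7.38, 0.391, 9.31 and 18.4 CPM in the same order.

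After carbon ions replicate 8 stood apart for 5 genes, with 2.51 CPM of Adipoq, 1.95 CPM of Plin1, 0.520 CPM of Lep, 0.173 CPM of Retn and 12.2 CPM of Cfd. The Retn value is 4 counts. In the photon controls replicate 8 stood apart for Plin1 at 5.56 CPM and Lep at 1.71 CPM. After photons replicate 5 did so for Adipoq at 1.10 CPM, Fabp4 at 9.18 CPM and Retn at 0.504 CPM, and replicate 2 for Cidec at 7.80 CPM.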

How the results depend on the processing

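No paired analysis was possible because replicates were numbered in accession order and their numbers tie no libraries together. Among the members, Lpl (photon and mean effects) and Cfd (mean effect) passed the threshold under some alternatives, with the values given above. The number of genes past the threshold moved as follows. For carbon ions it was 0, and 17 by DESeq2 (18 without replacement of outlying counts, an alternative chosen after seeing the data). For photons it was 781, 431 without the filter and 1524 by DESeq2 (1526). The mean effect had 158 genes, 9 with the M-titled libraries alone, 98 with the letter as a covariate and 468 by DESeq2 (470). The difference of the effects had 16, 94 with upper-quartile scaling, 4 without the filter, 1 with M-titled libraries alone and 262 by DESeq2 (245). Controls of both arms had 1871, 973 with M-titled libraries alone and 1081 with the covariate. Leaving out 1 library gave 0 to 5, 239 to 1656, 65 to 397, 5 to 108 and 1178 to 2196 genes in that order.

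Signs turned by DESeq2 for Adipoq after carbon ions (0.40), in the difference for Adipoq (2.54) and Cfd (1.60), and in the controls for Adipoq (-1.74) and Cfd (-1.40). Without replacement of outlying counts DESeq2 turned none of these 5 signs (-2.81, -0.67, -1.52, 1.47 and 1.72 in that order). With the M-titled libraries alone they turned in the difference for Fabp4 (-0.81) and Lpl (-0.27). Leaving out 1 library gave these ranges where a sign turned. After carbon ions Adipoq ran from -4.12 to 0.32 and Fabp4 from -1.46 to 0.18. Plin4 ran from -0.37 to 0.086 for the mean effect. In the difference Adipoq ran from -1.97 to 2.47, Plin1 from -3.40 to 1.03, Cidec from -0.49 to 0.12, Fabp4 from -0.36 to 1.62 and Cfd from -3.43 to 1.48. In the controls Adipoq ran from -1.75 to 2.33, Plin1 from -1.35 to 2.55, Lep from -1.30 to 2.24, Fabp4 from -1.40 to 0.57, Cfd from -1.34 to 2.60 and Lpl from -0.63 to 0.44. Without the 2 libraries farthest in Adipoq, the r of Cidec was 0.33. Beyond the replaced counts and the library left out, the cause was not tested. At this depth Lep and Retn, with 0 to 4 counts in most libraries, allow no ranking of groups.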
